A study of Rattus norvegicus with 36 samples.

Results

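H9C2 cells, a myoblast line derived from the rat heart, were transfected with mimics of miR-125b or of Trim AGU, a form of the same microRNA that lacks the last 3 bases, and the messenger RNA of both groups in normoxia was compared. The samples were chosen by their labels as Normoxia Trim AGU (3 libraries) and Normoxia miR-125b (3 libraries), which is 6 of the 36 samples of the series. The series holds 12 groups of 3 libraries, made from the mimic control MC, miR-125b and 4 isomiRs of it (Trim A, Trim AG, Trim AGU and Plus A), each in normoxia and in hypoxia. All cells received 25 nmol/L of a mimic for 24 h and were then kept for a further 24 h. The normoxia cells stayed in ordinary culture with fresh medium, whereas the hypoxia cells lost both oxygen and serum and were given medium low in glucose, so that oxygen and medium cannot be told apart between them. H9C2 is a single established line in culture and contains no mature beating cardiomyocytes. Since no counts of Normoxia MC were used, none of the normoxia values is a difference from cells given the control mimic.

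A microRNA guides the silencing complex to messenger RNAs mainly through its seed near the 5′ end, and the paired transcripts are translated less and degraded. Forms of a microRNA that share the 5′ end but end at another base at the 3′ end are called 3′ isomiRs, and the 3′ end is known for its part in supplementary pairing and in the stability of the microRNA. miR-125b is a conserved microRNA that is abundant in heart and muscle and is known for targets in apoptosis, p53 signalling and muscle differentiation.

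The sequences of the mimics are shown because they are the only designed difference between the groups. They were read from the RefSeq mature rno-miR-125b-5p of the gene *Mir125b2* (GRCr8, chr11:29732588-29732609, plus strand), with bases taken off or added at the 3′ end as the names of the isomiRs say. They run 5′ to 3′, and capitals mark the seed, bases 2 to 8, which is the same in all of them.
Plus A: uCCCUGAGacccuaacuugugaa
miR-125b: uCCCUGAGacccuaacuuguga
Trim A: uCCCUGAGacccuaacuugug
Trim AG: uCCCUGAGacccuaacuugu
Trim AGU: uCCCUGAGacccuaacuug
Trim AGU has 19 bases and miR-125b has 22.

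The 6 libraries held 28737185 to 30275668 counts, so depth differed little between the groups. Levels are given as CPM, which is the count of a gene relative to the total of its library, scaled by TMM over the 33 libraries with counts that were used. The distance between libraries, the root mean square difference of log2 CPM over 16285 genes, was 0.48 to 0.57 within Trim AGU, 0.48 to 0.53 within miR-125b and 0.62 to 0.73 between the groups, so that no pair of libraries from different groups was as close as any pair within a group. Trim AGU replicate 2 stood farthest from miR-125b, with the lowest share of ribosomal protein counts (2.25% against 2.66% to 3.37% in the other 5) and the highest share of mitochondrial counts (4.16% against 3.15% to 3.80%), and beyond leaving it out its part in the results was not tested. *Myod1* (121 to 141 CPM), *Myog* and *Cdh15*, which mark skeletal myoblasts, were present in all 6 libraries, whereas *Myf5* had no count and the cardiac genes *Nkx2-5* and *Actc1* stayed below 1 CPM. *Gata4*, a cardiac transcription factor, lay at 11.4 to 16.5 CPM, and *Des* at 2.62 to 3.87 CPM. Of markers of other cells, the summed level of the 5 leukocyte genes was 17.8 to 23.96 CPM with miR-125b and 13.2 to 16.5 CPM with Trim AGU, nearly all of it *Cd14*, with *Ptprc* at 0.106 CPM or less. The epithelial genes summed to 0.319 CPM or less and the endothelial genes to 1.30 CPM or less. Fibroblast markers were high through *Col1a1* in both groups, at 24284 to 28050.2 CPM with miR-125b and 18319.9 to 20059 CPM with Trim AGU, and its log2 fold change was not called.

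The library labelled Normoxia miR-125b replicate 1 went against the other libraries of its label for some genes. *Cav1*, the structural protein of caveolae, was at 106 CPM in it and at 287 and 266 CPM in replicates 2 and 3, while Plus A in normoxia showed the mirror image, with 271 CPM in replicate 1 and 103 CPM in both replicates 2 and 3. *Usp15*, a deubiquitinase, was at 47.3 CPM in miR-125b replicate 1 and at 25.8 and 24.6 CPM in the others, against 23.7, 48.4 and 51.0 CPM in Plus A. Over all genes, all 3 miR-125b libraries lay about as far from the Plus A libraries (0.46 to 0.51) as from each other (0.48 to 0.53). Within these narrow ranges the mirror image was seen again. Replicate 1 was nearer to Plus A replicates 2 and 3 (0.472 and 0.473) than to Plus A replicate 1 (0.508) or its own group (0.529 and 0.505). Replicates 2 and 3 of miR-125b were nearest to Plus A replicate 1 (0.482 and 0.460). Whether labels were exchanged was not tested. The label was kept, and the total counts of calls and the results of some lists and genes are also given without this library.

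With Trim AGU, cells in normoxia carried more RNA of genes of cell division and DNA replication and less of genes of the integrated stress response than with miR-125b. A gene was called when its Benjamini-Hochberg adjusted p was below 0.05 in edgeR's quasi-likelihood test and its levels differed at least 1.5-fold. Of 14720 genes tested, 915 (6.22%) were called higher with Trim AGU and 759 (5.16%) were called lower. Without the doubtful library, 790 genes were higher and 638 lower, and 1021 of the called genes were also called in each of the 6 fits that left out 1 library. The groups did not overlap for 99.1% of the called genes, against 42.8% of all genes tested. At least a 2-fold difference was seen for 293 higher and 344 lower genes, and at least a 4-fold difference for 13 higher and 59 lower genes. The median log2 fold change over all genes was -0.01. The labels do not say that replicates came from separate cultures, and p-values then measure only the spread between these libraries.

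**Figure D1:**
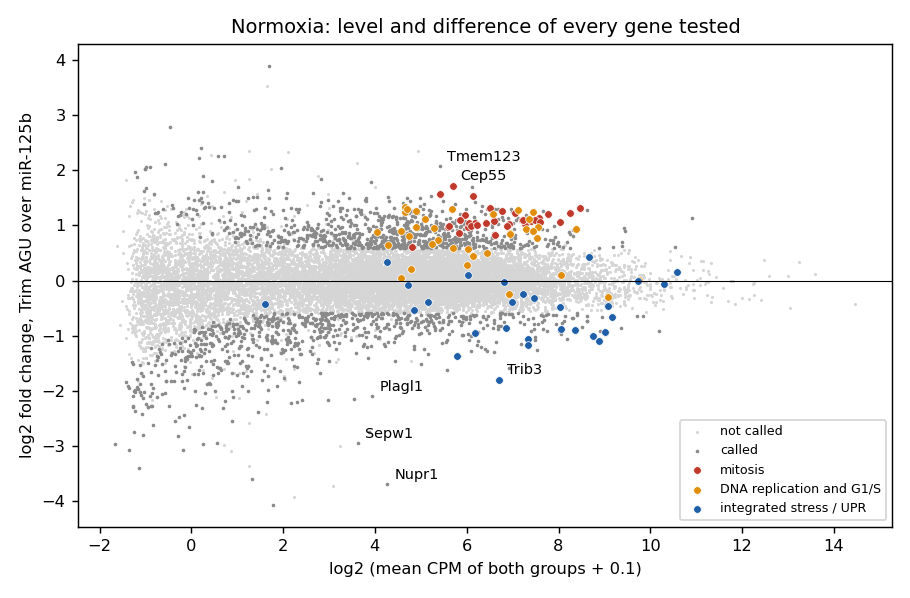
Each point is 1 of 14720 genes, with the log2 of its mean CPM in the 6 normoxia libraries on the x axis and its log2 fold change, Trim AGU over miR-125b, on the y axis; dark grey points were called and coloured points are members of 3 gene lists. All 33 mitosis genes tested lie above 0, while the integrated stress response genes lie mostly below it.

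The 12 named genes with the largest increase were protein coding genes with at least 5 CPM in the higher group and groups that did not overlap. *Tmem123*, which encodes the cell surface protein porimin, was at 15.4, 16.2 and 17.0 CPM with miR-125b and at 59.5, 87.2 and 59.0 CPM with Trim AGU. All 3 Trim AGU libraries lay far above all 3 miR-125b libraries, with a log2 fold change of 2.08 ± 0.16 (SE, adjusted p = 0.00012, edgeR). *Cep55*, needed for the last cut between daughter cells, stood at 23.4, 26.3 and 22.5 CPM with miR-125b and at 79.1, 87.6 and 71.2 CPM with Trim AGU, a difference of 1.72 ± 0.10 (adjusted p = 0.000103). *Usp15* was at 100.1, 119 and 98.0 CPM with Trim AGU, more than in any miR-125b library, and its log2 fold change of 1.70 ± 0.22 was 2.05 without the doubtful library. Another 6 genes of this group act in the cell cycle or in DNA repair and replication. These were the centrosome kinase *Nek2* (1.56), *Cdca3* (1.53), which promotes entry into mitosis, the pocket protein *Rbl1* (1.51), the helicase *Brip1* (1.51), the spindle motor *Kif15* (1.51) and *Bard1* (1.499), the partner of BRCA1. *Gja5*, the gap junction protein connexin 40, rose from 4.19 to 5.63 CPM to 11.9 to 19.3 CPM. The list was closed by *Prkar2a*, a regulatory subunit of protein kinase A, and *Stom*, the membrane protein stomatin, with log2 fold changes of 1.54 and 1.49. *Prkar2a* was at 9.92 CPM in the doubtful library and at 22.9 and 24.1 CPM in the other miR-125b libraries. Each of the 12 was called in all 6 fits that left out 1 library.

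Among the genes that fell, *Trib3*, a pseudokinase induced by ATF4 and CHOP, was the most abundant of the 12 named by the same rule. It was at 158, 161 and 168 CPM with miR-125b and at 52.3, 38.8 and 49.4 CPM with Trim AGU (log2 fold change -1.80 ± 0.11, adjusted p = 0.000103). *Plagl1*, an imprinted zinc finger transcription factor, was at 27.6, 24.03 and 22.7 CPM with miR-125b and at 3.51, 8.51 and 5.32 CPM with Trim AGU (-2.10 ± 0.26, adjusted p = 0.000633). In both genes the lowest miR-125b library was more than 2 times as high as the highest Trim AGU library. *Sepw1*, a small selenoprotein, spread widely within miR-125b (32.1, 21.8 and 11.6 CPM) but was always above its levels of 1.43 to 3.73 CPM with Trim AGU. *Col20a1*, a collagen chain, fell from 16.5 to 22.7 CPM to 3.35 to 5.08 CPM (-2.15 ± 0.19). *Spata13*, an exchange factor for Rac and Cdc42, fell by 2.17 on the log2 scale and *Bcas1* by 2.20. *Pgf*, placental growth factor of the VEGF family, fell by 1.92, the transporter *Abca17* by 1.77, *Calml4* by 1.69, and *Gtpbp6* had a log2 fold change of -2.23. These 10 were called in all 6 fits that left out 1 library, as was *MGC94199*, while *Nupr1* was not. *Nupr1*, a stress-induced nuclear protein, owed its log2 fold change of -3.70 ± 1.10 to miR-125b replicate 3 at 97.2 CPM, since the other miR-125b libraries held 4.57 and 5.10 CPM and the Trim AGU libraries 2.24 to 3.21 CPM. Without 1 library its log2 fold change reached -0.81, and it was called in 3 of the 6 fits. *MGC94199*, a clone name that the tables give to 2 gene identifiers, of which 1 was called, was at 9.04, 9.21 and 0.669 CPM with miR-125b and at 0.209 to 0.538 CPM with Trim AGU (-4.07 ± 0.85), which is far apart in 2 of the miR-125b libraries and close in replicate 3.

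Mitosis genes formed the most uniform group. Cyclins with CDK1 drive entry into mitosis, the Aurora and Polo kinases build the spindle, and the anaphase promoting complex with CDC20 ends the phase. The list was 1 of 22 used, and all 33 of its members that were tested were called higher with Trim AGU, beside 6.22% of all genes, with log2 fold changes of 0.61 to 1.72 and a median of 1.08. The groups did not overlap for any of the 33, beside 42.8% of all genes tested and 99.1% of all called genes. Their summed level was 2149, 2699 and 2650 CPM with miR-125b and 5577, 5547 and 5321 CPM with Trim AGU, and it was the doubtful library that stood lowest. Without that library 32 members were called, and 32 or 33 in the other fits that left out 1 library. *Cdk1* was at 95.9, 106 and 105 CPM with miR-125b and at 229, 197 and 199 CPM with Trim AGU (1.02 ± 0.09, adjusted p = 0.000164). Cyclin A2 (*Ccna2*) rose from 67.7, 84.2 and 84.2 CPM to 195, 184 and 178 CPM (1.23 ± 0.10), and anillin (*Anln*), which organises the contractile ring, from 116, 136 and 143 CPM to 293, 321 and 306 CPM. Both groups thus kept apart by more than their whole spread. The proliferation marker *Mki67* went from 178, 212 and 219 CPM to 447, 574 and 492 CPM. The smallest log2 fold change was that of the phosphatase *Cdc25c*, at 0.61, which was called in 4 of the 6 fits that left out 1 library, while the other 32 genes were called in all of them. In bulk RNA, a larger share of cells in a phase of the cycle and more RNA of these genes per cell cannot be told apart.

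Genes of DNA replication and of the step from G1 to S moved the same way, with 26 of 36 members called higher and none lower (23 to 27 higher when 1 library was left out). Of all genes, 6.22% were called higher. The median log2 fold change was 0.87. The replicative helicase was represented by *Mcm5*, at 63.2, 90.9 and 88.9 CPM with miR-125b and 208, 182 and 202 CPM with Trim AGU. *Mcm10*, a factor that acts with the helicase, rose by 1.24 ± 0.11 on the log2 scale. Ribonucleotide reductase, which makes deoxynucleotides, rose in both subunits, *Rrm2* by 1.24 ± 0.10 and *Rrm1* by 0.93 ± 0.10 on the log2 scale. *Ccne2*, a cyclin of the G1 to S step, rose by 1.11 ± 0.12, from 18.7 to 25.1 CPM to 44.8 to 49.0 CPM. The D cyclins and their kinases were not among the called genes. *Ccnd1* differed by 0.00 ± 0.12, *Cdk4* by 0.10 ± 0.07 and *Cdk6* by 0.05 ± 0.11, whereas *Ccnd3* was lower by less than 1.5-fold (-0.30 ± 0.07, adjusted p = 0.0177). *E2f1* missed the fold threshold with 0.57 ± 0.11 (adjusted p = 0.00515), while *E2f2* was called.

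The promoters of genes of these groups are shown because their members moved together. Promoters of RefSeq (GRCr8) run from 250 bases before to 50 bases after the start of the gene, and were found for 29 of the 33 called mitosis genes. The letters TTTGAA, the core of the cell cycle homology region that the DREAM and MuvB complexes read, occurred on either strand in 19 of these 29 (65.5%), beside 18.1% of the 27457 promoters of the table. CCAAT, the box bound by NF-Y, occurred in 23 of the 29 (79.3%), beside 37.7% of all. GCGGGAA, a form of the E2F site, was in 1 of the 29, beside 4.47% of all promoters. For the called replication genes promoters were found for 20 of 26, too few for a share. The windows below hold the letters of these 3 motifs in capitals, read on either strand, and the motifs do not overlap in them. A match of letters is a description and not a binding site.
Cdk1 (chr20:19265063-19265302, plus strand): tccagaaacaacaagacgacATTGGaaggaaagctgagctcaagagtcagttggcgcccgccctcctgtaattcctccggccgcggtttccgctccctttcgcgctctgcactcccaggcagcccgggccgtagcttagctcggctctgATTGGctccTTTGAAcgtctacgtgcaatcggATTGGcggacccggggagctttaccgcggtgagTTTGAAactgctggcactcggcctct
Plk1 (chr1:186147600-186147689, plus strand): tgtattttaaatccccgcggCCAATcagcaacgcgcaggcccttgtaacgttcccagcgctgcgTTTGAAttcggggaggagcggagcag
Mcm5 (chr19:13488656-13488832, plus strand): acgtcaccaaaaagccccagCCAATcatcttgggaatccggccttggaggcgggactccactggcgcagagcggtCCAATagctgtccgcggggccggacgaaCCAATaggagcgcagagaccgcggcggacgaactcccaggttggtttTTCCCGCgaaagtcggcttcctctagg
*Plk1*, the Polo kinase, was at 108, 139 and 128 CPM with miR-125b and at 287, 230 and 264 CPM with Trim AGU. In *Cdk1* the TTTGAA matches begin 72 and 16 bases upstream of the start, and in *Mcm5* the E2F letters begin 7 bases upstream of it.

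Genes of the integrated stress and unfolded protein response moved the other way. In this response, stalled translation initiation favours the transcription factor ATF4, which with CHOP turns on genes of amino acid uptake and synthesis, whereas the unfolded protein branches raise chaperones of the endoplasmic reticulum. Of 28 members tested, 12 were called lower with Trim AGU and none higher, beside 5.16% of all genes called lower, and the median log2 fold change was -0.47. The same number, 12, was called lower in each fit that left out 1 library. *Ddit3*, which encodes CHOP, was at 81.1, 79.5 and 77.7 CPM with miR-125b and at 32.9, 29.4 and 30.2 CPM with Trim AGU (-1.37 ± 0.08, adjusted p = 0.000103). *Atf4* itself was at 703, 725 and 670.4 CPM against 457, 440.0 and 433 CPM (-0.66 ± 0.07). The groups were tight and far apart for both. The amino acid carrier made of *Slc7a5* and *Slc3a2* fell in both chains, by 1.09 and 1.01 on the log2 scale. Asparagine synthetase (*Asns*) was at 231, 222 and 206 CPM with miR-125b and 110.2, 107 and 99.1 CPM with Trim AGU, and the serine pathway enzymes *Phgdh* (-0.88) and *Shmt2* (-0.91) were also called. *Sesn2* (-1.17), *Chac1* (-0.95), *Atf5* (-0.93) and *Herpud1* (-0.86) made up the rest beside *Trib3*. Chaperones of the same list were not called lower. *Hspa5*, the main chaperone of the endoplasmic reticulum, differed by -0.01 ± 0.07, *Calr* by -0.06 ± 0.08, *Hsp90b1* by 0.15 ± 0.08 and *Pdia4* by 0.42 ± 0.08 (adjusted p = 0.00567), the last under the fold threshold.

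All 12 called genes of this response had a promoter in the table. TGATGNAA, the composite element that CEBP and ATF factors read, occurred in 3 of the 12 (25.0%) on either strand, beside 3.82% of all promoters. These are the windows with the element in capitals.
Trib3 (chr3:161275527-161275574, minus strand): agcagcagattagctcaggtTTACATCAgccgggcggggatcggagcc
Chac1 (chr3:126795944-126795991, plus strand): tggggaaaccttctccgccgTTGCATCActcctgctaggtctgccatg
Herpud1 (chr19:10614864-10614911, minus strand): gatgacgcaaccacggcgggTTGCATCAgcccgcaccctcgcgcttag
The element begins 21 bases upstream of the start of *Trib3*, 167 upstream of *Chac1* and 184 upstream of *Herpud1*. Neither TTTGAA nor GCGGGAA occurred in the promoters of the 12 genes.

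p53 targets were called lower for 6 of 21 members and higher for 1, beside 5.16% and 6.22% of all genes, and the median log2 fold change was -0.03. *Cdkn1a*, the p21 inhibitor of cyclin dependent kinases, was at 418, 380.4 and 374 CPM with miR-125b and at 208, 157 and 198 CPM with Trim AGU (-1.06 ± 0.11, adjusted p = 0.00029). *Ccng1*, which encodes cyclin G1, was at 609 to 636 CPM against 307 to 367 CPM (-0.92 ± 0.08), and *Gadd45a*, a stress sensor, was at 87.7 to 96.0 CPM against 36.1 to 52.9 CPM (-1.01 ± 0.13). *Mdm2* (-0.63), which degrades p53, and the death receptor *Fas* (-0.76) fell less, and *Sesn2* belongs also to the stress list. The exception was *Ei24*, a p53-induced gene (0.63 ± 0.20), which was at 33.8 CPM in the doubtful library and at 63.7 and 58.4 CPM in the other miR-125b libraries, and was called in 1 of the 6 fits that left out 1 library.

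**Figure D2:**
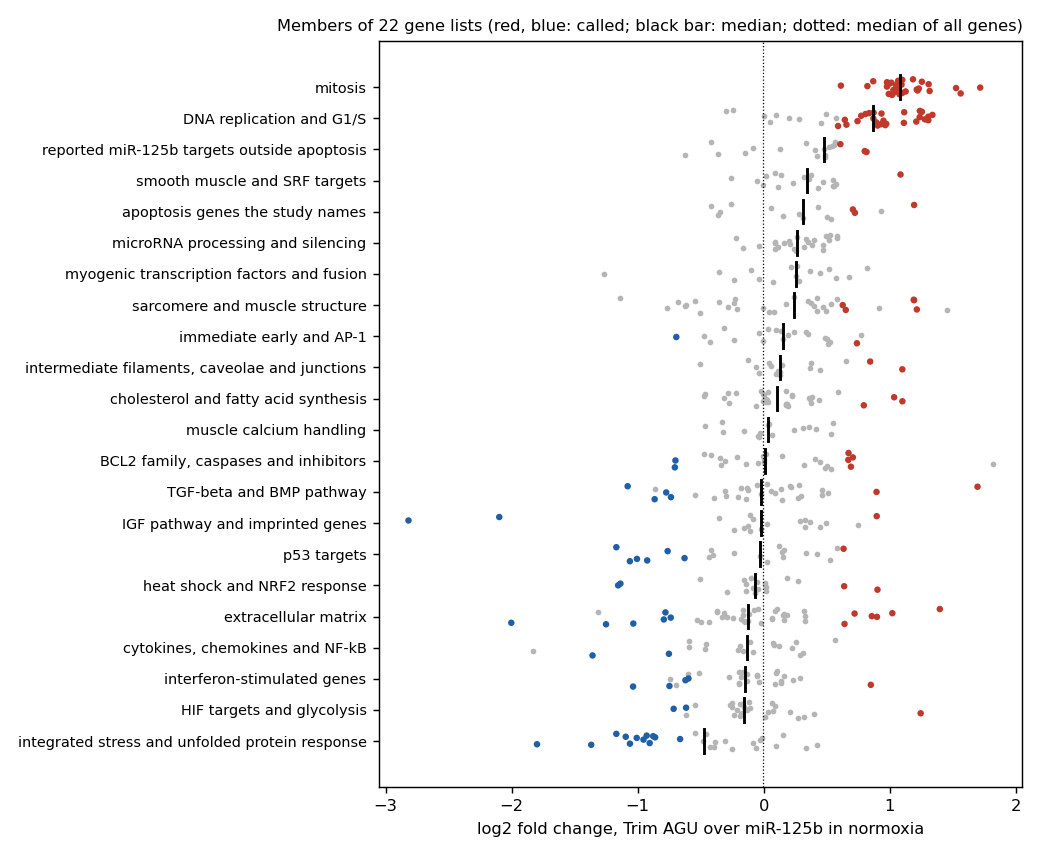
Log2 fold changes, Trim AGU over miR-125b in normoxia, of the members of 22 gene lists; each point is a gene, red and blue points were called higher or lower, black bars are list medians and the dotted line is the median of all genes. Mitosis (median 1.08) and the integrated stress response (median -0.47) mark the ends of the range.

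Of the apoptosis genes and controls that the study names, 15 were tested and 3 were called, all higher with Trim AGU (median of the 15, 0.31). Of all genes, 6.22% were called higher. Without the fold threshold, 6 of the 15 passed the adjusted p as higher and 2 as lower. The 3 called genes were *Casp2*, the initiator caspase 2, at 24.03, 27.2 and 29.4 CPM with miR-125b and 44.9, 46.5 and 40.8 CPM with Trim AGU (0.71 ± 0.10, adjusted p = 0.00132), the transcription factor *Klf13* (0.72 ± 0.15, adjusted p = 0.00678) and cardiac troponin T (*Tnnt2*). *Tnnt2* was at 13.4, 9.39 and 13.02 CPM with miR-125b and at 20.7, 37.2 and 24.05 CPM with Trim AGU (1.19 ± 0.22, adjusted p = 0.00447). *Bak1*, a pore-forming killer protein of the BCL2 family and a known target of miR-125b, was at 43.5, 33.1 and 33.3 CPM against 54.6, 48.5 and 56.0 CPM, which passed the p threshold but not the fold threshold (0.53 ± 0.11, adjusted p = 0.00925). The same held for *Tp53inp2* (0.43 ± 0.09, adjusted p = 0.00962) and *Bmf* (0.51 ± 0.14, adjusted p = 0.0297) above miR-125b, and for *Bcl2l11* (-0.35 ± 0.11, adjusted p = 0.0452) below it. For *Tnfrsf1b* (0.93 ± 0.33, adjusted p = 0.0663), *Hif1an* (0.28 ± 0.11), *Traf6* (0.31 ± 0.13), *Bax* (-0.42 ± 0.17) and *Actb* (-0.26 ± 0.10) the adjusted p missed the threshold, as it did for *Tp53inp1* (0.16 ± 0.17) and *Dram2* (0.06 ± 0.11). The study names all of these genes and measured most of them in these cells, with *Actb* as a reference. *Klf13* and *Bax* appear in it only through earlier reports.

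Of other reported targets of miR-125b, 3 of 19 were called higher and none lower, beside 6.22% and 5.16% of all genes. Their median was 0.48, and 2 to 6 were higher and up to 1 lower when 1 library was left out. The transcription factor *Ets1* was at 16.6, 18.4 and 17.1 CPM with miR-125b and 31.7, 34.2 and 26.2 CPM with Trim AGU (0.82 ± 0.11, adjusted p = 0.00113). The receptor of leukaemia inhibitory factor (*Lifr*) rose by 0.80 ± 0.13 and the kinase *Mknk2* by 0.61 ± 0.10, and *Mknk2* was called in 4 of the 6 fits that left out 1 library. Across the BCL2 family, caspases and their inhibitors, 4 of 26 were higher and 2 lower, beside the same shares of all genes, with a median of 0.01. The higher genes were on both sides of apoptosis, with the caspase *Casp2* and the inhibitors *Cflar* (0.67) and *Xiap* (0.69), and the lower ones were the BH3-only protein *Bid* (-0.70) and the inhibitor *Birc3* (-0.71). The genes of microRNA processing and silencing held no called member among 25 with edgeR or DESeq2, at a median of 0.26, while 13 were higher and none lower at an unadjusted p below 0.05. Of these 13, 7 passed the adjusted p but not the fold threshold, and up to 2 members of the list were called when 1 library was left out.

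In the sarcomere list 5 of 33 were higher, beside 6.22% of all genes, and none lower (2 to 7 higher and up to 3 lower when 1 library was left out), with *Xirp1* (1.19 ± 0.16), which binds actin at cell junctions, and *Tnnt2* as the members called in every fit. No member was called by edgeR among 16 genes of calcium handling (median 0.04), where 2 were higher and 1 lower at an unadjusted p below 0.05 and DESeq2 called none. The same was true of 16 myogenic transcription factors and fusion genes (median 0.26), where 6 were higher and 2 lower at an unadjusted p below 0.05 and DESeq2 called 1. *Myh11*, smooth muscle myosin, was called of 18 smooth muscle and SRF targets (1.08 ± 0.10), with 1 to 3 called when 1 library was left out, and 9 of the 18 passed the adjusted p as higher, most of them under the fold threshold. In the matrix list 6 of 43 were called higher and 6 lower, beside 6.22% and 5.16% of all genes. Without the fold threshold, 6 passed the adjusted p as higher and 13 as lower, and the median was -0.13. The summed level of the list was 74465 to 81827 CPM with miR-125b and 62845 to 71895 CPM with Trim AGU. Tenascin C (*Tnc*) was at 34.2, 27.3 and 27.2 CPM with miR-125b and 70.3, 88.8 and 75.0 CPM with Trim AGU (1.40 ± 0.12), and *Col6a3* (1.02), *Postn* (0.90), *Fbln1* (0.86) and *Loxl2* (0.72) were also among the higher ones. The collagen modifier *Plod1* (-0.79), the membrane protease *Mmp14* (-0.74), *Col11a1* (-0.78), *Fmod* (-2.003), *Eln* (-1.03) and *Col6a1* (-1.25) were lower. *Fmod* and *Col6a1* lay at or below 2.29 CPM in all 6 libraries. The groups overlapped for *Eln*, at 5.32, 9.89 and 11.4 CPM with miR-125b and 3.98, 5.41 and 3.65 CPM with Trim AGU.

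In the TGF-beta and BMP list, 2 of 31 were higher and 4 lower. This list and the 2 after it stand beside 6.22% of all genes called higher and 5.16% called lower. *Inhba*, a subunit of activin, rose by 0.90 ± 0.21 beside *Usp15*, whereas the receptors *Tgfbr1* (-0.74 ± 0.11) and *Tgfbr3* (-0.87 ± 0.12), the BMP antagonist *Nog* (-1.08 ± 0.23) and *Bmp6* (-0.77 ± 0.20) fell. Of 19 genes of the IGF pathway and imprinted genes, *Plagl1* and *Igfbp2* were lower and *Igf2bp2*, which binds the messenger RNA of *Igf2*, was higher (0.90 ± 0.11). *Igfbp2* was scarce, at 0.780, 1.24 and 1.72 CPM against 0.251, 0.209 and 0.0669 CPM. Of 32 genes of cholesterol and fatty acid synthesis 3 were higher and none lower, among them the sterol isomerase *Ebp* (0.79) and the sterol carrier *Stard4* (1.03).

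The remaining lists can be read beside the 6.22% of all genes called higher and the 5.16% called lower. HIF targets and glycolysis had 1 of 29 higher and 2 lower, among them *Vegfa*, at 279, 238 and 253 CPM against 144, 161 and 165 CPM (-0.71 ± 0.09), and *Adm* (-0.62 ± 0.14), while *Aldoc*, the higher one, stayed below 1 CPM. Of 28 interferon-stimulated genes 4 were lower (*Tap1*, *Irf9*, *Irf7* and *Psmb8*) and *Mx2* was higher, with 2 to 4 lower and 0 or 1 higher when 1 library was left out. The chemokines *Ccl7* (-1.36 ± 0.26) and *Cxcl1* (-0.75 ± 0.19) were the called ones of 20 cytokines and NF-kB genes. Of 19 heat shock and NRF2 genes, haem oxygenase (*Hmox1*) fell from 207, 202 and 195 CPM to 98.7, 78.5 and 94.7 CPM (-1.16 ± 0.09), *Osgin1* fell by 1.14 ± 0.18, and *Gclm* (0.64) and *Hsp90aa1* (0.90) rose. *Ier3* (0.74) was higher and *Klf2* (-0.69) lower among 21 immediate early genes, where leaving out 1 library gave 1 to 5 higher and 0 to 2 lower. *Lmnb1*, lamin B1 (1.10 ± 0.15), and *Gjc1*, connexin 45 (0.84 ± 0.10), were higher among 17 genes of filaments, caveolae and junctions.

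The levels in the other normoxia groups are given in the order of the length of the mimic. For *Cep55*, the 3 libraries lay at 19.7 to 23.1 CPM in Plus A, 22.5 to 26.3 in miR-125b, 39.3 to 40.9 in Trim A, 67.2 to 71.3 in Trim AG and 71.2 to 87.6 CPM in Trim AGU. Plus A and miR-125b overlapped, Trim AG and Trim AGU overlapped at 1 library each, and Trim A stood apart from both pairs. *Trib3* gave the reverse order, with 156 to 177 CPM in Plus A, 158 to 168 in miR-125b, 109 to 135 in Trim A, 38.3 to 46.8 in Trim AG and 38.8 to 52.3 CPM in Trim AGU. The summed mitosis genes showed the same steps, 2066 to 2614 CPM in Plus A, 2149 to 2699 in miR-125b, 3283 to 3406 in Trim A, 5488 to 5821 in Trim AG and 5321 to 5577 CPM in Trim AGU. *Usp15* took another form, with Trim A (93.4 to 98.1 CPM) near Trim AG (106 to 108) and Trim AGU (98.0 to 119). All of these are levels on one TMM scale, described without a test.

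**Figure D3:**
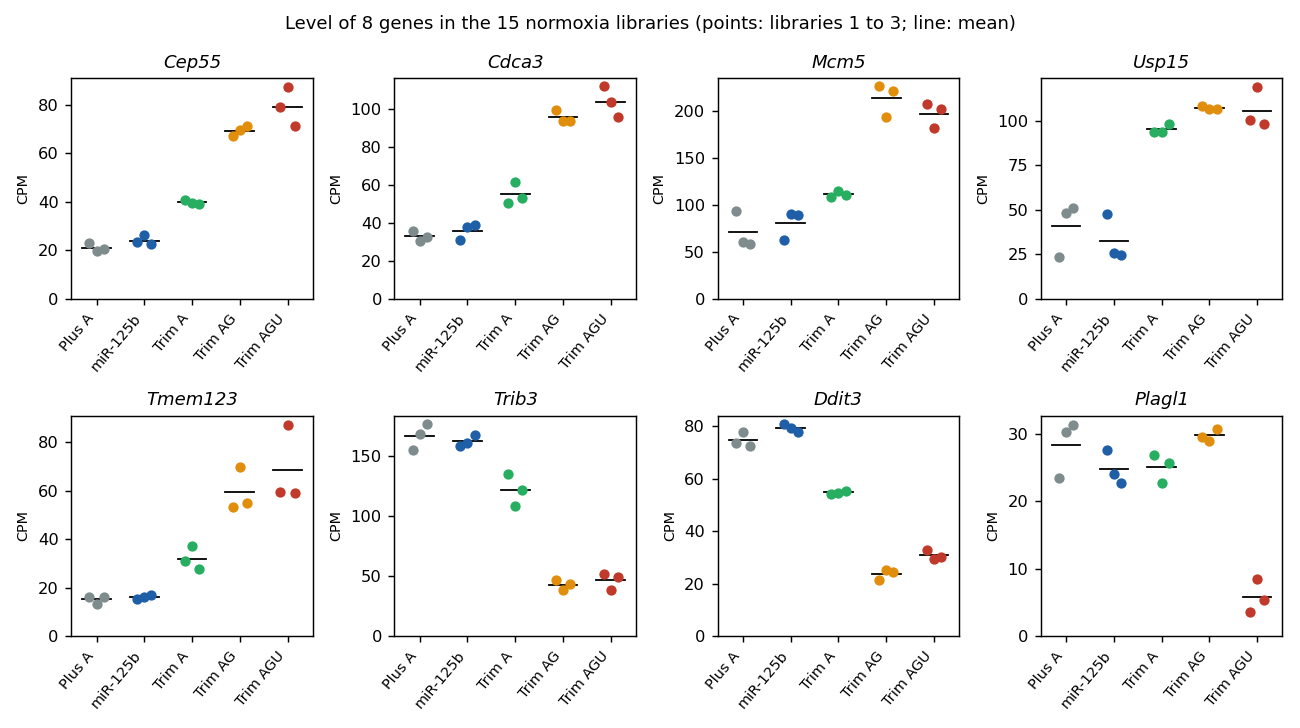
CPM of 8 genes (y axis, from 0) in the 15 normoxia libraries of 5 groups ordered by the length of the mimic; points are libraries 1 to 3 and lines are means. *Cep55*, *Cdca3*, *Mcm5*, *Tmem123*, *Trib3* and *Ddit3* change between miR-125b and Trim AG, whereas *Plagl1* lies at 3.51 to 8.51 CPM in Trim AGU and at 22.7 CPM or more in the other 4 groups.

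Trim AG, which is 1 base longer than Trim AGU, was compared with it directly. Of 14768 genes, 232 (1.57%) were called higher and 187 (1.27%) lower with Trim AGU than with Trim AG. This comparison uses the same Trim AGU libraries as the one with miR-125b, so their values are set side by side only. No mitosis gene of 33 was called by edgeR or DESeq2, with a median log2 fold change of -0.06 and 2 higher and 3 lower at an unadjusted p below 0.05. The stress response list held 1 called gene of 28, the cystine carrier *Slc7a11*, higher with Trim AGU (0.88 ± 0.14). The replication list held 1 called gene of 36, higher with Trim AGU. *Cep55* differed by 0.19 ± 0.08 between the 2 isomiRs and *Trib3* by 0.13 ± 0.12, against 1.72 and -1.80 between Trim AGU and miR-125b. *Ddit3* differed by 0.37 ± 0.09 (adjusted p = 0.0376), under the fold threshold. *Plagl1* was at 29.5, 28.9 and 30.7 CPM with Trim AG, so that its difference from Trim AGU, -2.36 ± 0.25 (adjusted p = 0.00201), stood beside one of -2.10 ± 0.26 from miR-125b. *Spata13* and *Col20a1* were lower with Trim AGU than with Trim AG by 0.87 ± 0.20 and 0.88 ± 0.17 on the log2 scale, beside differences of -2.17 and -2.15 from miR-125b. The transcripts of muscle actin *Acta1* (-1.14 ± 0.08) and fast troponin C *Tnnc2* (-1.12 ± 0.11) were lower, and those of the matrix proteins *Bgn* (1.42 ± 0.17) and *Lox* (0.86 ± 0.11) and of *Lifr* (0.79 ± 0.12) were higher, with Trim AGU than with Trim AG. The call counts fell to 97 higher and 48 lower without Trim AG replicate 3, to 115 and 81 without Trim AG replicate 1, and to 171 and 83 without Trim AGU replicate 3.

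The same pair of mimics was compared in hypoxia, in 6 libraries that are not used above. There 275 of 15051 genes (1.83%) were called higher with Trim AGU and 290 (1.93%) lower. These libraries were less alike than those in normoxia. Hypoxia Trim AGU replicate 2 held 7.14% of its counts in ribosomal protein genes and its counts came from genes of 2419 bases on average, against 3.88% and 5.09% and 3105 and 2830 bases in replicates 1 and 3, and their part in the results was tested only by leaving libraries out. Without it, 506 genes were higher and 795 lower. Without Trim AGU replicate 1 the counts were 788 and 689, and without replicate 3 they were 60 and 29. Leaving out any of the miR-125b libraries left 17 to 25 higher and 10 to 13 lower.

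Mitosis genes were higher with Trim AGU in hypoxia as well, with 31 of 33 called, a median log2 fold change of 1.49 and summed levels of 690.4 to 710 CPM with miR-125b and 1919 to 1992 CPM with Trim AGU. The number called was 31 without Trim AGU replicate 1, 33 without replicate 2 and 21 without replicate 3, but 11 or 12 without any of the miR-125b libraries. *Cep55* was at 5.27 to 6.02 CPM and 21.2 to 25.5 CPM (2.05 ± 0.14, adjusted p = 0.00215, edgeR). Both groups were below their normoxia levels, and MC in hypoxia stood at 6.01 to 6.77 CPM, near miR-125b. Of 36 replication genes 10 were called higher, against 15, 16 and 1 without Trim AGU replicates 1, 2 and 3 and 0 without any of the miR-125b libraries. Of the 12 genes named above as increased in normoxia, 6 were called higher in hypoxia and none lower, and of the 12 named as decreased 5 were called lower and none higher. *Plagl1* was at 30.7, 34.5 and 35.2 CPM with miR-125b and at 3.89, 1.10 and 2.67 CPM with Trim AGU in hypoxia (-3.71 ± 0.42, adjusted p = 0.00896).

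**Figure D4:**
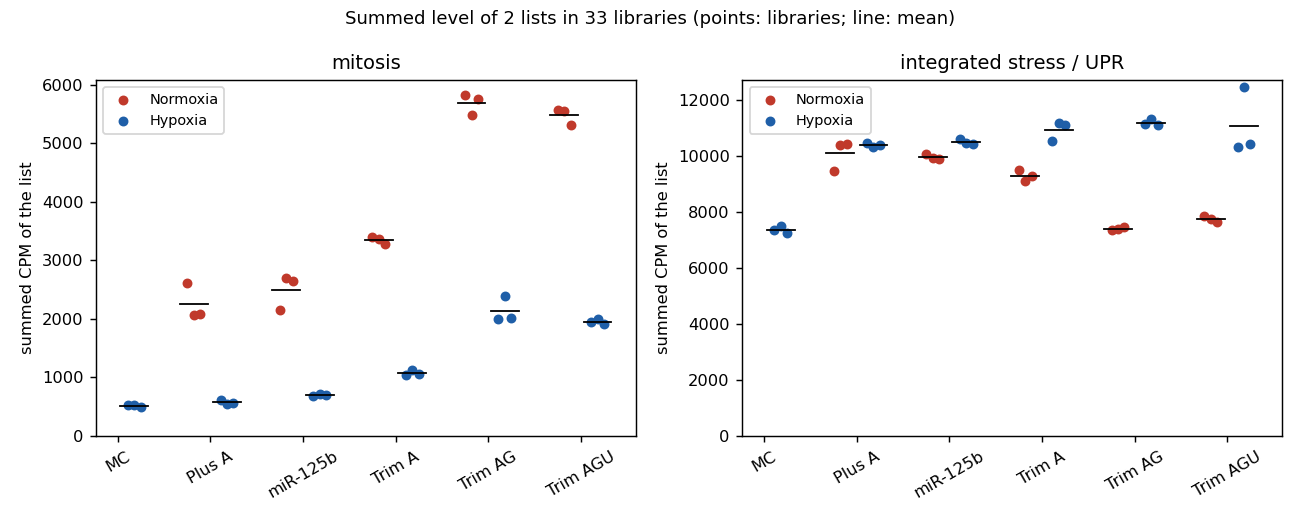
Summed CPM (y axis, from 0) of the mitosis list and of the integrated stress and unfolded protein response list in 33 libraries, by mimic and oxygen; points are libraries and lines are means. In normoxia the Trim AGU libraries sum to 5321 to 5577 CPM for mitosis, above 2149 to 2699 CPM for miR-125b, and in hypoxia the same order is seen at lower levels, while for the stress list the groups are apart in normoxia (7631 to 7835 CPM against 9863 to 10067 CPM) and overlap in hypoxia.

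For the integrated stress response, none of the 29 members tested was called in hypoxia by edgeR and the median was 0.10. At an unadjusted p below 0.05, 3 were higher and 4 lower, and DESeq2 called 1 higher. Without Hypoxia Trim AGU replicate 1, 1 member was called in each direction, and none was called in the other fits that left out 1 library. *Trib3* was at 474, 471 and 462 CPM with miR-125b and at 520, 598 and 513 CPM with Trim AGU in hypoxia, both far above their levels in normoxia. Whether a difference between the mimics changed with oxygen was tested as an interaction in 1 fit of the 12 libraries, called at an adjusted p below 0.05. Of 15525 genes, 55 (0.354%) had a more positive difference in normoxia than in hypoxia and 95 (0.612%) a more negative one. The stress list held 11 of the more negative ones among 29 members, with a median interaction of -0.58, and no more positive one. They were *Trib3* (-2.05 ± 0.16, adjusted p = 0.000458), *Chac1* (-1.30 ± 0.14), *Ddit3* (-2.05 ± 0.33), *Asns*, *Sesn2*, *Atf5*, *Psat1*, *Phgdh*, *Shmt2*, *Mthfd2* and *Slc3a2*. Their number was 18, 14 and 10 without Hypoxia Trim AGU replicates 1, 2 and 3, 8, 6 and 4 without the Normoxia Trim AGU replicates, 5, 4 and 4 without the Normoxia miR-125b replicates and 2, 3 and 3 without the Hypoxia miR-125b replicates. No mitosis gene was called for an interaction by edgeR, at a median of -0.41, but 18 of 33 were more negative at an unadjusted p below 0.05 and DESeq2 called 5 of them. In edgeR 7 were called more negative without Hypoxia Trim AGU replicate 1, 2 without its replicate 2 and 1 without its replicate 3. Of the other lists, 4 of 19 heat shock and NRF2 genes (*Hmox1*, *Txnrd1*, *Osgin1* and *Nfe2l2*) and 3 of 21 p53 targets (*Sesn2*, *Gadd45a* and *Fas*) had a more negative difference in normoxia. The matrix genes *Col6a3*, *Fbln1* and *Lox* and the myogenic factors *Myod1* (0.91) and *Myog* (0.94) had a more positive one. These counts moved with single libraries, since leaving out 1 of the 12 gave 1 to 9 heat shock and NRF2 genes, 1 to 10 p53 targets, 0 to 21 matrix genes and 0 to 5 myogenic genes. The highest matrix, p53 and heat shock counts came without Hypoxia Trim AGU replicate 1, and without Normoxia miR-125b replicate 1 the 4 counts were 1, 2, 0 and 0.

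**Figure D5:**
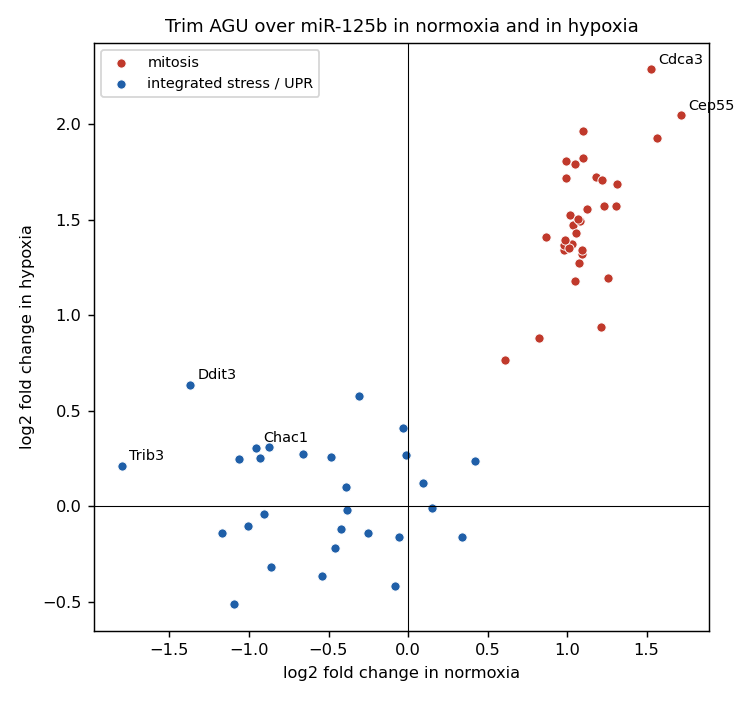
Log2 fold change of Trim AGU over miR-125b in normoxia (x axis) and in hypoxia (y axis) for the tested members of 2 gene lists; each point is a gene. Mitosis genes are above 0 on both axes, while *Trib3* is at -1.80 in normoxia and 0.21 in hypoxia.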

How the data were processed

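Messenger RNA of H9C2 cells was sequenced after non-stranded poly-A selection. Of the deposited tables, one for each comparison of the authors, 11 give raw read counts of every library, and these were joined by gene identifier into 33 libraries and 24275 genes. The submitters' processing notes name HISAT2 and StringTie, without versions, and the genome build is not given in the sources used here. Without strand, reads of overlapping and antisense genes cannot be told apart. The FPKM values, fold changes and p-values in the tables are the authors' own and were not used. The gene length that the authors gave in bases served only to weigh lengths.

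Genes were filtered with filterByExpr, scaled by TMM and tested with edgeR 4.0.16 in R 4.3.3 by the quasi-likelihood test (Benjamini-Hochberg adjusted p below 0.05 and at least 1.5-fold, with no fold limit for the interaction). The SE of a log2 fold change was derived from its F statistic. The 22 gene lists and the members were chosen with earlier results of these data known. Named genes were, per direction, the 12 called protein coding genes with the largest log2 fold change, a gene name, at least 5 CPM in the higher group and groups without overlap, besides list members, the genes the study names and the 5 interaction genes per direction of lowest p. Alternatives were DESeq2 1.42.0, RLE size factors, no filter on low counts, other fold thresholds, a fit of all libraries, a replicate block, removal of a gene length trend, and leaving out each library. The edgeR step was tested on simulated counts for the normoxia comparison and for the interaction, and the other steps were not. Some genes that these rules name are not reported here.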

Additional observations from a re-analysis of the deposited data

Results flagged for a closer look

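The difference between Trim AGU and miR-125b changed between normoxia and hypoxia for 150 genes by a test of the interaction (edgeR, adjusted p below 0.05), and 10 of the 150, all with a more negative difference in normoxia, were called in every fit that left out 1 of the 12 libraries. Oxygen, serum and glucose changed together between these conditions and cannot be told apart.

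The 5 genes with the lowest p among the more negative interactions were each called in all 12 of those fits. *Trib3* had an interaction of -2.05 (adjusted p = 0.000458) and *Chac1*, which degrades glutathione, one of -1.30 (adjusted p = 0.00374). *Chac1* was at 93.8 to 96.7 CPM with miR-125b and 44.7 to 55.4 CPM with Trim AGU in normoxia. In hypoxia it was at 89.3 to 92.7 CPM and 101 CPM or more, so that the order of the groups was turned. That difference in hypoxia, 0.31 on the log2 scale, was under the fold threshold. *Hmox1* (-1.48, adjusted p = 0.00374) showed the same turn. In normoxia it was at 195 to 207 CPM against 78.5 to 98.7 CPM. In hypoxia it was at 813 to 849 CPM against 938 CPM or more. This difference of 0.29 on the log2 scale was also under the fold threshold. *Adh7*, an alcohol dehydrogenase (-2.21, adjusted p = 0.00394), and *Angptl4*, an inhibitor of lipoprotein lipase (-2.33, adjusted p = 0.00667), differed most in hypoxia. *Adh7* was at 9.98 to 11.6 CPM with miR-125b and 32.9 to 35.0 CPM with Trim AGU there, and *Angptl4* at 4.14 to 4.99 CPM and 11.2 to 14.2 CPM.

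The more positive interactions held in fewer of the 12 fits. The fast myosin *Myh1* (1.36, adjusted p = 0.0178, called in 6 fits) rose from 68.7 to 75.7 CPM to 160 to 187 CPM in normoxia and overlapped in hypoxia. *Prima1* (1.99, adjusted p = 0.012, called in 10 fits) was at 10.4 to 11.5 CPM and 20.8 to 29.9 CPM in normoxia and at 3.28 to 4.01 CPM and 1.45 to 2.64 CPM in hypoxia. The lysosomal enzyme *Gusb* (0.99, adjusted p = 0.0142, called in 10 fits) was at 40.9 to 42.7 CPM and 68.8 to 82.7 CPM in normoxia. *Vwa1*, a matrix protein (1.27, adjusted p = 0.0144, called in 7 fits), was lower with Trim AGU mainly in hypoxia, at 5.42 to 7.40 CPM against 18.5 to 19.3 CPM.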

How the results depend on the processing

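In normoxia the number of called genes was 1674, 637 at a fold threshold of 2 and 3680 with no fold threshold, and between 1413 and 1745 when 1 library was left out. It stayed within 1.5 times the reported number with DESeq2, RLE size factors, all genes kept, the gene length trend removed and a fit over every library. Same-numbered libraries of Trim AGU and miR-125b in normoxia deviated together by correlations of 0.02 to 0.05, and differently numbered ones by -0.08 to 0.06. For Trim AGU and Trim AG these were 0.05 to 0.11 and -0.08 to 0.01. With 3 libraries per group, these values cannot show whether equal numbers mark shared cultures. A replicate block gave 1606 called genes for Trim AGU and miR-125b in normoxia. In hypoxia 565 genes were called, 2356 with all libraries in 1 fit, 54 with a replicate block, 1248 with DESeq2, 310 at a fold threshold of 2 and 27 to 1477 when 1 library was left out. For the interaction 150 genes were called, 2412 with all libraries in 1 fit, 15 with a replicate block, 890 with DESeq2 and 11 to 2729 when 1 library was left out. The highest of both ranges came without Hypoxia Trim AGU replicate 1 and the lowest without Hypoxia miR-125b replicate 1. Between Trim AGU and Trim AG 419 genes were called, 479 with a replicate block, 114 at a fold threshold of 2, 1162 with no fold threshold and 145 to 417 when 1 library was left out. The causes of these shifts were not tested. The balance of higher and lower calls did change sides. Higher calls outnumbered lower ones in normoxia (915 and 759) but not at a fold threshold of 2 (293 and 344). Between Trim AGU and Trim AG they did not at that threshold (44 and 70) or without Trim AGU replicate 2 (196 and 209). In hypoxia higher calls were the fewer in the main fit (275 and 290), in the fit of all libraries (1008 and 1348) and with DESeq2 (608 and 640). The same held at a fold threshold of 2 (149 and 161) and without Hypoxia Trim AGU replicate 2 (506 and 795). Every other setting gave more higher than lower calls, as with RLE size factors (279 and 267) and a replicate block (38 and 16). For the interaction (55 and 95) higher calls were the fewer, but not without Hypoxia Trim AGU replicate 2 (421 and 353). List medians near 0 changed sign, as for p53 targets (-0.03 to 0.04) without Normoxia Trim AGU replicate 1. Of 166 genes followed in normoxia none changed the sign of its log2 fold change. Calls were lost by 3 with DESeq2, 6 with all libraries in 1 fit and 4 with the length trend removed. The replicate block took 4 calls and the lack of a filter 1. Over the fits that left out 1 library, with each gene counted in each fit, calls were lost 81 times, gained 3 times and unchanged 912 times. The mean distances within and between the groups moved by more than their spread with a prior count of 0.5 and over the 500 genes of highest variance.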

Other observations

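The families below were chosen after their values were seen, so their counts are a description, and none is tested as a set. They stand beside 6.22% of all genes called higher and 5.16% called lower in normoxia. Among 20 cytosolic aminoacyl-tRNA synthetases, which load amino acids onto transfer RNAs, 6 were called lower with Trim AGU in normoxia and none higher, with a median log2 fold change of -0.50. *Iars* was at 256, 237 and 235 CPM with miR-125b and at 112, 119 and 114 CPM with Trim AGU, and *Aars* at 728, 677 and 675 CPM against 347, 351 and 359 CPM, so both groups were tight and apart. The 17 mitochondrial synthetases had a median of 0.02. Of 29 genes named *Slc1*, *Slc3*, *Slc6*, *Slc7* or *Slc38*, families that hold amino acid carriers, 10 were called lower and none higher (median -0.46). Among the 10 were the serotonin carrier *Slc6a4* and the glycine carrier *Slc6a9*. *Slc6a9* was at 83.9, 74.2 and 76.3 CPM with miR-125b and 31.3, 26.7 and 32.5 CPM with Trim AGU. In hypoxia the median of the 20 cytosolic synthetases was 0.13. Their interaction with oxygen was called for 6 of 20, all with a more negative difference in normoxia, beside 0.612% of all genes.

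The rise of division genes extended beyond the lists. It held for 14 of 18 centromere proteins (*Cenp* genes, median 0.80), 5 of 6 condensin subunits (0.98), 7 of 10 Fanconi anaemia genes (0.72), which repair crosslinked DNA, and 13 of 32 kinesins (0.26), with none lower in these families. Of all genes, 6.22% were called higher. Some of these genes are also members of the mitosis and replication lists. Of 101 cytosolic ribosomal protein genes 1 was called lower and none higher, at a median of -0.30, and the share of their counts was lowest in Trim AGU replicate 2.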
